A study of Mus musculus with 6 samples.

Results

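The Dlk1-Dio3 region is an imprinted domain of the genome whose distal end carries a dense row of small RNA genes, the miR-379 to miR-410 cluster. The members described here were fixed by a list of 39 miRNAs, and every assay on the panel that carries one of those names was taken, whichever species prefix or arm it had. This gave 65 of the 750 miRNA assays on the panel, covering 38 of the 39 miRNAs, with no assay named for miR-341. RefSeq places 38 hairpins of these miRNAs on chromosome 12 of the mouse genome (GRCm38.p6), all on the plus strand. Of these, 36 lie from Mir379 to Mir410, at 12:109709060-109743795, a stretch of 34736 bp. The other 2, Mir370 (start 109618258) and Mir882 (start 109682197), lie before Mir379, so the name of the cluster covers them by the list alone.

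The samples were whole prefrontal cortices of 6 untreated male mice aged 5 months. The 3 control mice were C57BL/6J, labelled wild type, and the 3 others were BTBR T+ Itpr3tf/J, an inbred strain studied for its autism-like behaviour. The strain background field of the BTBR samples reads C57BL/6J, while their title, source name and genotype field read BTBR. The strains differ across the whole genome, so a strain difference cannot be tied to any single allele. Levels were read once per assay and mouse by TaqMan PCR on the OpenArray rodent panel, which reports a threshold cycle. A later cycle means less RNA, 1 cycle corresponds to a 2-fold difference where amplification is perfect, and 40 stands for an undetermined reading.

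The cluster belongs to the genes of the Dlk1-Dio3 domain that are expressed from the maternal chromosome, alongside the long noncoding RNA Meg3, and its hairpins are cut from long shared transcripts. In brain its miRNAs are found mainly in neurons, and transcription of the cluster responds to neuronal activity through Mef2 factors. Its best known member, miR-134, acts in dendrites on Limk1 and limits the size of spines. Each hairpin can give a mature miRNA from either arm, named 5p or 3p, and on this panel # marks the arm expected to be rarer. A miRNA finds its targets mainly through its seed, the bases numbered 2 to 8 from the 5′ end.

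Mature mouse sequences from RefSeq (GRCm38.p6) could be attached to 56 of the 65 assays, 45 different sequences in all. The first set holds the miRNAs whose assays passed the test on the authors' normalized values. Seeds are in capitals.
mmu-miR-369-5p: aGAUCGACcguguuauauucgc
mmu-miR-380-5p: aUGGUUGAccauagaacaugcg
mmu-miR-381-3p: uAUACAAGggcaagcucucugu
mmu-miR-409-5p: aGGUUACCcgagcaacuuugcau
mmu-miR-543-3p: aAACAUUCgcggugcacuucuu
mmu-miR-544-3p: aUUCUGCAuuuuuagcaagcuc
mmu-miR-376a-3p: aUCGUAGAggaaaauccacgu
mmu-miR-370-3p: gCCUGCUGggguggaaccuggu
mmu-miR-323-3p: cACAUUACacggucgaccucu
mmu-miR-539-5p: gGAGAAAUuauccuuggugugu
mmu-miR-541-5p: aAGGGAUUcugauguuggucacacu
The remaining assay that passed was for miR-487b. These 11 sequences carry 11 different seeds, so the passing assays do not form a single seed family.

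The second set is shown because these are near relatives or opposite arms of members with an assay on the panel, or because an assay was read in 1 strain only.
mmu-miR-300-3p: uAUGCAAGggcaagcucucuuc
mmu-miR-376b-3p: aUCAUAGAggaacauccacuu
mmu-miR-495-3p: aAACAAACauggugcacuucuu
mmu-miR-379-3p: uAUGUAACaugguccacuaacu
mmu-miR-411-3p: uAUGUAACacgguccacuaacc
mmu-miR-411-5p: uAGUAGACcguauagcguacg
mmu-miR-376a-5p: gGUAGAUUcuccuucuaugagu
mmu-miR-376b-5p: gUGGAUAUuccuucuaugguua
mmu-miR-376c-5p: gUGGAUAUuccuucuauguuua
mmu-miR-409-3p: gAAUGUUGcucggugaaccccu
mmu-miR-329-3p: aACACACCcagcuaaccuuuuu
mmu-miR-668-3p: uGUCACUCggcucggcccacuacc
Counting positions from the 5′ end, miR-300-3p differs from miR-381-3p at 3 of 22 bases (A4G, G21U and U22C), the first of them in the seed. In the same way miR-376b-3p differs from miR-376a-3p at 3 of 21 bases (G4A, A13C and G20U). The pair miR-495-3p and miR-543-3p share 18 of 22 bases. The 3p arms of miR-379 and miR-411 share their seed and 20 of 22 bases, and the 5p arms of miR-376b and miR-376c share a seed. Neither the primers of the assays nor their power to separate such relatives are stated in the sources used here, and an assay with the prefix hsa or rno may have been designed on another species' sequence.

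Of the 65 cluster assays, 30 were read in all 6 mice, 16 in none and 19 in 1 to 5 mice. The earliest reading belonged to hsa-miR-382, at 14.5, 14.5 and 14.4 cycles in C57BL/6J and 14.6, 14.8 and 14.8 cycles in BTBR. It was followed by hsa-miR-410, hsa-miR-411, mmu-miR-376c and hsa-miR-487b, whose mean thresholds over the 6 mice ran from 15.9 to 17.2 cycles. At the other end, hsa-miR-154, mmu-miR-666, hsa-miR-411# and MMU-MIR-1193 had means from 29.3 to 31.5 cycles. This order is a description of the assays, since the sources used here do not give the efficiency of each assay. Readings of miR-382, miR-410 and miR-411 in BTBR were later than in C57BL/6J in every mouse, by less than 1 cycle on average.

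**Figure D1:**
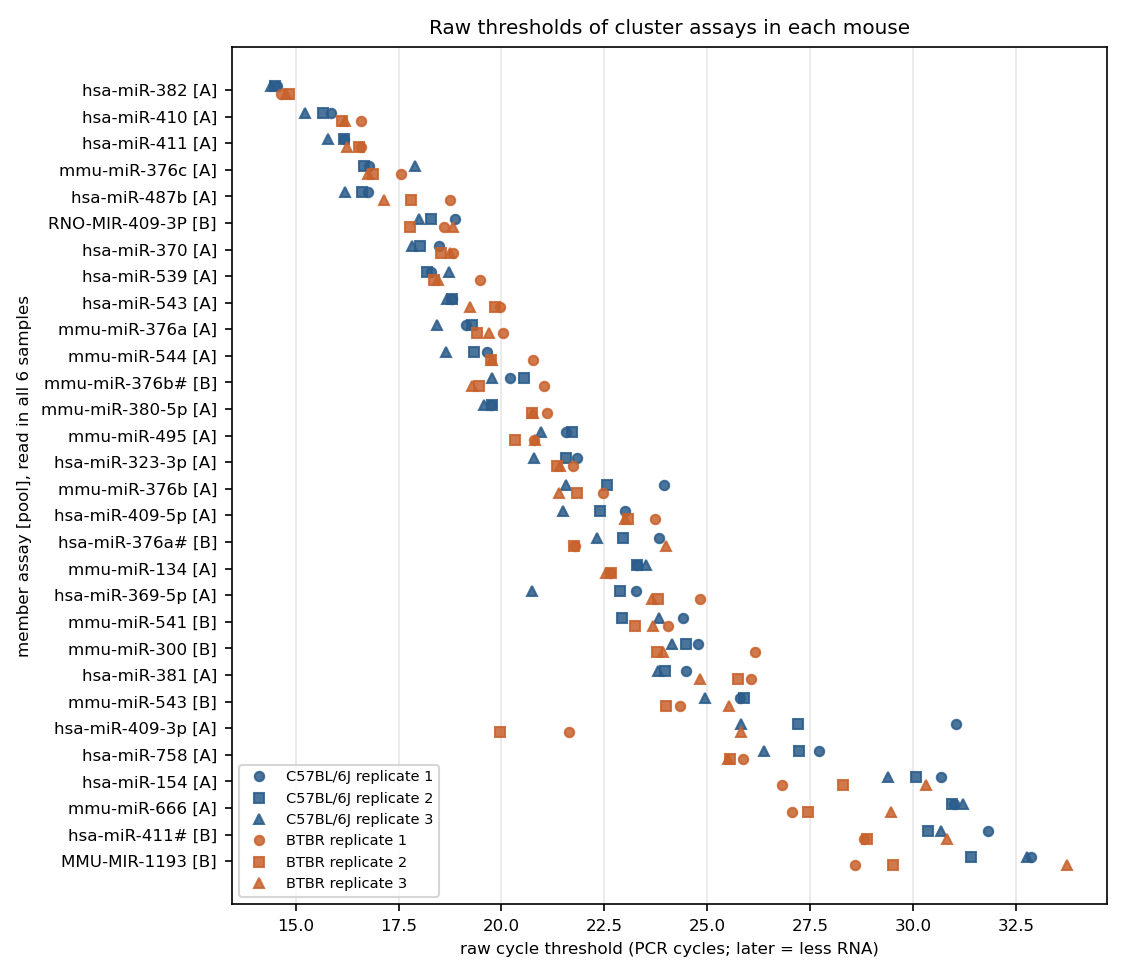
Raw threshold cycle (x axis, PCR cycles, later means less RNA) of the 30 cluster assays read in all 6 mice, ordered by their mean; blue marks are the C57BL/6J mice, orange marks the BTBR mice, and the letter in brackets is the pool. Orange marks lie to the right of blue ones for hsa-miR-487b and hsa-miR-381 and to the left for hsa-miR-758 and mmu-miR-666.

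More cluster assays gave a reading in BTBR than in C57BL/6J on average, but the counts overlapped. The C57BL/6J mice had 39, 34 and 30 of the 65 assays read, and the BTBR mice 42, 45 and 38. The means were 34.3 ± 4.51 and 41.7 ± 3.51 (SD, n = 3), and the difference of 7.33 assays gave p = 0.2 in an exact two-sided permutation test, whose smallest possible p is 0.1. Over the whole panel 289 to 305 assays were read in C57BL/6J and 347 to 404 in BTBR, so the surplus was not limited to the cluster. With readings under 28 cycles alone, the counts of cluster assays were 31, 30 and 26 against 37, 41 and 34 (exact p = 0.1). The panel separated likewise under this cut, with 257, 258 and 246 assays against 319, 370 and 302 (exact p = 0.1).

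4 of the 65 assays (6.15%) were read in all 3 BTBR mice and in no C57BL/6J mouse, beside 3.73% of the whole panel. The reverse pattern held for 0 of the 65, beside 0.4% of the panel. The assay mmu-miR-668 was read at 19.3, 18.2 and 18.4 cycles in BTBR, and mmu-miR-329, one of the miRNAs induced by neuronal activity, at 23.3, 24.3 and 23.0 cycles. The assay mmu-miR-487b was read at 17.8, 17.0 and 18.1 cycles, and rno-miR-381 at 19.9, 20.3 and 18.6 cycles. All 4 were undetermined in the 3 C57BL/6J mice, which gives no level there and no fold. These readings lie well before the last cycles of the run. A second assay for miR-381 and for miR-487b was read in every C57BL/6J mouse. In the authors' deposited table these are the 4 cluster assays with a higher level in BTBR at an adjusted p-value under 0.05, from 0.00509 for mmu-miR-668 to 0.0213 for mmu-miR-329, with folds computed against 40. They are 4 of its 35 cluster assays (11.4%), beside 8.17% of all 306 assays in that table.

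A further 6 assays were read in 1 or 2 BTBR mice and in no C57BL/6J mouse, namely mmu-miR-379, hsa-miR-494, mmu-miR-667, hsa-miR-154#, mmu-miR-412 and hsa-miR-369-3p. For 5 of the 6 BTBR replicate 2 was among the mice with a reading together with 1 other, and mmu-miR-412 was read in BTBR replicate 2 alone, at 20.4 cycles. A second assay for miR-412, hsa-miR-412, was read late and in both strains. It read 37.3 cycles in C57BL/6J replicate 1 and 31.9 and 30.8 cycles in BTBR replicates 1 and 2. The assay mmu-miR-667 had early readings, 19.0 and 17.8 cycles in BTBR replicates 1 and 2, and none in replicate 3. The other readings, in cycles, were 23.0 and 21.1 for mmu-miR-379, 23.0 and 24.05 for hsa-miR-494, 23.8 and 24.2 for hsa-miR-154#, and 28.65 and 26.3 for hsa-miR-369-3p. In the other direction, rno-miR-379# was read at 21.7 and 22.0 cycles and rno-miR-382# at 24.4 and 22.0 cycles in C57BL/6J replicates 1 and 2 and in no other mouse. Partial readings were thus found in both strains, and they included thresholds near 20 cycles. Such partial patterns were not counted over the panel, where 289 to 305 assays were read in C57BL/6J and 347 to 404 in BTBR.

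The central question of the design is which miRNAs differ between BTBR and C57BL/6J cortex. On the authors' quantile-normalized values, 12 of the 27 cluster assays with enough readings were lower in BTBR and 0 were higher (limma, Benjamini-Hochberg adjusted p under 0.05 over all 231 assays tested). The lower share was 44.4%, beside 35.5% of all assays tested, and 1.3% of all assays were called higher. At an unadjusted p under 0.05 the cluster counts were 14 lower (51.9%) and 0 higher, beside 46.3% and 2.6% of all assays. The median change of the cluster was -1.06 log2 units, beside -1.13 for all 231 assays, so the cluster's median lay close to that of the panel on this scale. When each sample's normalized values were centred on their median, 0 of 27 were called in either direction and the cluster median was 0.11, beside 0.05 for the panel.

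The calls also depended on single mice, in the cluster and over the panel alike. The 12 lower calls became 0 when C57BL/6J replicate 2, C57BL/6J replicate 3 or BTBR replicate 1 was left out, and 1 when BTBR replicate 2 was left out. They became 11 without C57BL/6J replicate 1 and 13 without BTBR replicate 3. Over all assays the lower share fell from 35.5% to 0.0% without BTBR replicate 1 or C57BL/6J replicate 3, 0.943% without C57BL/6J replicate 2 and 3.76% without BTBR replicate 2. It was 29.1% without C57BL/6J replicate 1 and 41.5% without BTBR replicate 3. At an unadjusted p under 0.05 these fits gave between 12 and 17 lower cluster assays. Panel counts at that threshold were not taken for these fits.

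The same strain contrast was therefore also read on a second scale, the raw threshold minus each mouse's mean over the assays read in all 6 mice, with the sign turned. Here 0 of 31 cluster assays passed in either direction, beside 0.0% of 270 assays lower and 0.0% higher (limma, adjusted p under 0.05 over 270 assays). At an unadjusted p under 0.05, 10 cluster assays were lower (32.3%) and 3 higher (9.68%), beside 17.4% and 8.89% of all assays. The median change was -0.41 log2 units in the cluster and -0.40 over all 270 assays. With no centring both medians were -0.01. Without BTBR replicate 3, 9 of 30 cluster assays were called lower (30.0%) and 2 higher (6.67%) on the global mean scale. The shares of all 258 assays in that fit were 13.2% lower and 8.91% higher. Leaving out any other single mouse gave 0 cluster calls in either direction on this scale.

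Over the whole panel, BTBR replicate 3 was closer to the controls than to its own strain. Its normalized values correlated at 0.945, 0.966 and 0.951 with the C57BL/6J mice and at 0.938 and 0.918 with the other BTBR mice, over 189 assays read in all 6 samples. On the global mean scale the 30 cluster assays read everywhere had median deviations from their own mean of 0.34, 0.25 and 0.25 in C57BL/6J and of -0.43, -0.31 and -0.0010 in BTBR. The median of the third BTBR mouse thus lay between those of the other BTBR mice and the controls. The sources used here do not say which mice shared an array or a run, so strain and array cannot be told apart.

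Of the 12 assays called on the normalized values, hsa-miR-381 had the largest difference. Its normalized thresholds were 23.5, 23.3 and 23.0 cycles in C57BL/6J and 26.9, 28.7 and 25.4 cycles in BTBR, with every BTBR mouse later than every control. The change was -3.74 log2 units (SE 0.83, adjusted p = 0.0301), or 13.3-fold less. The raw thresholds were closer, at 24.5, 24.0 and 23.8 cycles against 26.1, 25.7 and 24.8 cycles. The groups did not overlap there either, and the change on the global mean scale was -1.85 (SE 0.50, adjusted p = 0.135).

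For hsa-miR-369-5p, from the second-last hairpin of the cluster, the raw thresholds were 23.3, 22.9 and 20.7 cycles in C57BL/6J and 24.8, 23.8 and 23.7 cycles in BTBR. The third control mouse read over 2 cycles before the other controls, and the groups did not overlap. The change was -3.52 (SE 0.74, adjusted p = 0.0298) on the normalized values and -2.20 (SE 0.65, adjusted p = 0.135) on the global mean scale. The assay hsa-miR-409-5p, whose hairpin lies close by, read 23.0, 22.4 and 21.5 cycles in C57BL/6J and 23.7, 23.1 and 23.0 cycles in BTBR. Its raw ranges met at 22.99 cycles, and they separated on both adjusted scales. The change was -2.56 (SE 0.54, adjusted p = 0.0298) on the normalized values and -1.37 (SE 0.41) on the global mean scale.

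The assay mmu-miR-380-5p had the smallest p of the cluster on both scales. It read 19.7, 19.8 and 19.6 cycles in C57BL/6J and 21.1, 20.8 and 20.8 cycles in BTBR, a gap of about a cycle with no overlap. The change was -2.38 (SE 0.36, adjusted p = 0.0265) on the normalized values and -1.58 (SE 0.35, adjusted p = 0.132) on the global mean scale. Its partner arm, mmu-miR-380-3p, was read in C57BL/6J replicate 1 at 29.9 cycles and in BTBR replicate 1 at 29.2 cycles only. In the authors' deposited table mmu-miR-380-5p is the single cluster assay with a lower level in BTBR at an adjusted p-value under 0.05 (0.0389, fold 0.192). This is 1 of 35 cluster assays (2.86%), beside 7.52% of all 306 assays.

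Several assays from the middle of the cluster gave further lower values, with assays that were not called between them. The assay hsa-miR-487b read 16.8, 16.6 and 16.2 cycles in C57BL/6J and 18.7, 17.8 and 17.2 cycles in BTBR, with no overlap. Its change was -1.84 (SE 0.41, adjusted p = 0.0301) on the normalized values and nearly the same, -1.78 (SE 0.51), on the global mean scale. The assay mmu-miR-544 read 19.6, 19.3 and 18.6 cycles against 20.8, 19.7 and 19.8 cycles, again with no overlap. Its change was -2.06 (SE 0.40, adjusted p = 0.0298) and -1.29 (SE 0.40) on the 2 scales. For hsa-miR-543 the thresholds were 18.8, 18.8 and 18.7 cycles against 19.97, 19.8 and 19.2 cycles, where the control mice lay within 0.2 cycles of each other and below all BTBR mice. The change of hsa-miR-543 was -1.87 (SE 0.45, adjusted p = 0.0301) and -1.33 (SE 0.44).

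The miR-376 family lies in the same stretch, and its primary transcripts are known targets of A-to-I editing in brain. The assay mmu-miR-376a read 19.1, 19.3 and 18.4 cycles in C57BL/6J and 20.03, 19.4 and 19.7 cycles in BTBR, with a gap of 0.1 cycles between the groups. The change was -1.80 (SE 0.36, adjusted p = 0.0298) on the normalized values and -1.16 (SE 0.33) on the global mean scale. Its close relative mmu-miR-376b overlapped between strains, at 24.0, 22.6 and 21.6 cycles against 22.5, 21.8 and 21.4 cycles. Neither mmu-miR-376b (-0.71, SE 0.72) nor mmu-miR-376c (-0.32, SE 0.32) passed on the normalized values, and on the global mean scale mmu-miR-376b had the opposite sign (0.40, SE 0.58). The difference between mmu-miR-376a and its relatives was not tested.

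The assay hsa-miR-370, whose hairpin lies outside the main row, read 18.5, 18.0 and 17.8 cycles in C57BL/6J and 18.8, 18.5 and 18.7 cycles in BTBR. The gap between the groups was under 0.1 cycles. The change was -1.44 (SE 0.37, adjusted p = 0.0327) on the normalized values and -0.99 (SE 0.30) on the global mean scale. The last called assays, hsa-miR-323-3p, hsa-miR-539 and mmu-miR-541, overlapped between strains on the raw and the global mean scale.

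The assay hsa-miR-323-3p read 21.8, 21.6 and 20.8 cycles in C57BL/6J and 21.7, 21.4 and 21.4 cycles in BTBR, and its normalized thresholds were 21.2, 20.7 and 20.2 against 22.3, 22.8 and 21.7 cycles. Its change was -1.59 (SE 0.42, adjusted p = 0.0339) on the normalized values and -0.50 (SE 0.34) on the global mean scale. For hsa-miR-539 the raw thresholds were 18.3, 18.2 and 18.7 against 19.5, 18.3 and 18.5 cycles, with BTBR replicate 1 the latest. The normalized thresholds were 18.2, 17.8 and 18.3 against 19.5, 19.2 and 18.8 cycles, and the change was -1.06 (SE 0.33, adjusted p = 0.0490), or -0.75 (SE 0.48) on the global mean scale. For mmu-miR-541 the raw thresholds were 24.4, 22.9 and 23.8 against 24.1, 23.2 and 23.7 cycles, with the BTBR mice inside the range of the controls. The normalized thresholds of mmu-miR-541 were 23.4, 22.2 and 23.1 against 24.7, 24.8 and 24.3 cycles, and the change was -1.72 (SE 0.41, adjusted p = 0.0301), or -0.33 (SE 0.44) on the global mean scale. For hsa-miR-539 the sign turned to 0.11 when the normalized values were centred on sample medians. These 3 assays were thus separated between strains on the normalized values and not on the raw ones.

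On the global mean scale the 4 cluster assays with the smallest p were mmu-miR-380-5p, mmu-miR-666, hsa-miR-381 and mmu-miR-376a, of which mmu-miR-666 was the higher one. It read 31.0, 30.9 and 31.2 cycles in C57BL/6J and 27.1, 27.4 and 29.5 cycles in BTBR, all late, with no overlap. Its change was 2.67 (SE 0.64, adjusted p = 0.132), or 6.35-fold more, and it was left out of the authors' normalized table. A second assay named for miR-666, RNO-MIR-666, read earlier and in fewer mice. It read 25.1 and 20.8 cycles in C57BL/6J replicates 1 and 2 and 23.8 cycles in BTBR replicate 2 only. The assay mmu-miR-666-3p was read in no mouse. Among the 30 cluster assays read in every mouse, 13 were lower in BTBR with no overlap on this scale (43.3%), beside 23.2% of 237 assays on the panel. A further 4 were higher with no overlap (13.3%), beside 11.8%. The 13 were 9 of the called assays together with hsa-miR-410, hsa-miR-411, hsa-miR-382 and RNO-MIR-409-3P. The 4 higher ones were mmu-miR-666, hsa-miR-409-3p, hsa-miR-758 and mmu-miR-495.

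Of the lower assays without overlap, those for the abundant miR-410, miR-411 and miR-382 were not called. The assay hsa-miR-410, the last of the cluster, read 15.9, 15.7 and 15.2 cycles in C57BL/6J and 16.6, 16.1 and 16.2 cycles in BTBR. Its change was -0.94 (SE 0.34, adjusted p = 0.0725) on the normalized values and -1.12 (SE 0.32, adjusted p = 0.135) on the global mean scale. For hsa-miR-411 the values were -0.77 (SE 0.32) and -0.82 (SE 0.37), and for hsa-miR-382 -0.19 (SE 0.34) and -0.67 (SE 0.37). The spine regulator miR-134 went the other way on the raw scale. The assay mmu-miR-134 read 23.3, 23.3 and 23.5 cycles in C57BL/6J and 22.6, 22.7 and 22.5 cycles in BTBR, earlier in every BTBR mouse. Its change was 0.35 (SE 0.40) on the global mean scale and -0.87 (SE 0.38, adjusted p = 0.118) on the normalized values, so its sign depended on the scaling. For mmu-miR-495, a miRNA known to target Bdnf, the signs differed likewise, at 0.37 (SE 0.31) and -0.67 (SE 0.32).

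**Figure D2:**
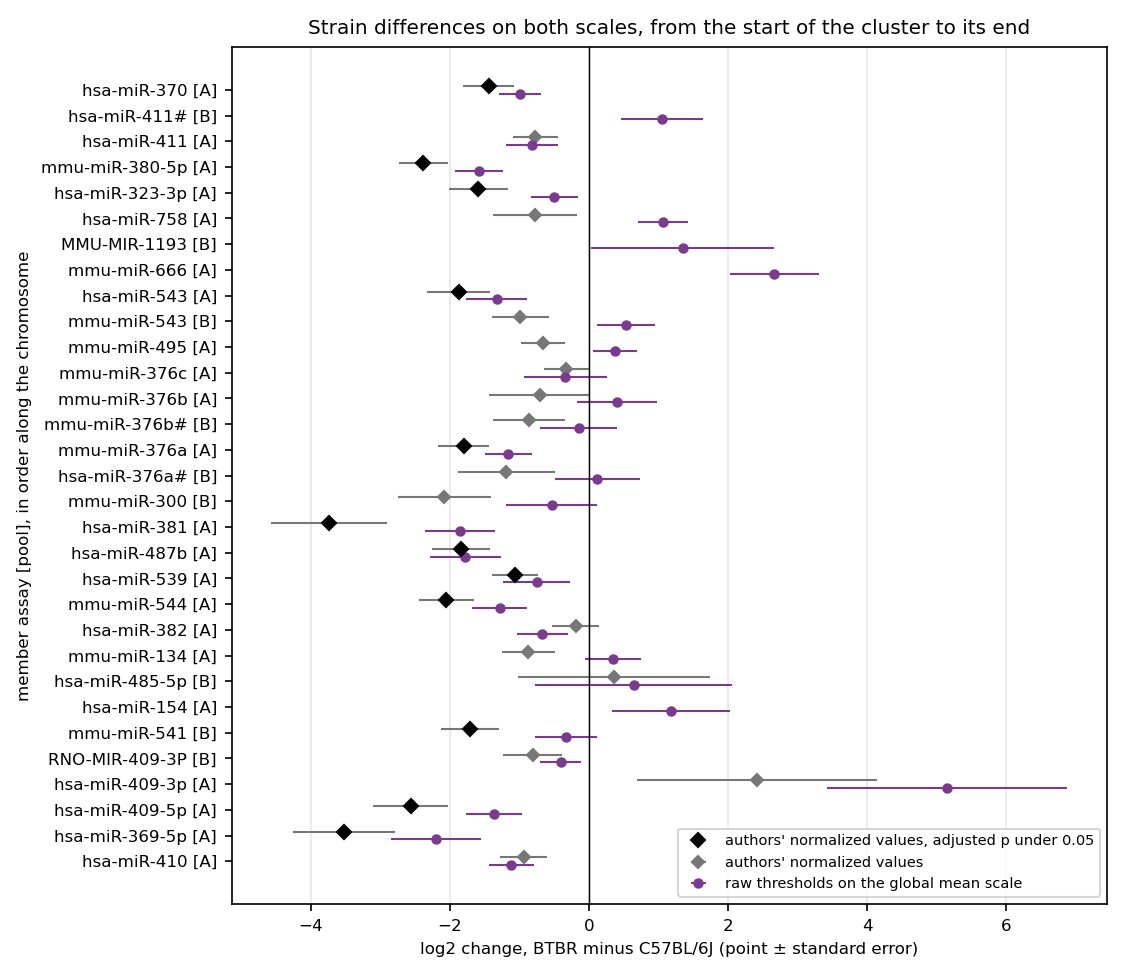
Change between strains (x axis, log2 units, BTBR minus C57BL/6J, bars are standard errors) for the 31 cluster assays that could be tested, from the first hairpin on the chromosome at the top to the last at the bottom; diamonds are the authors' normalized values, black where adjusted p was under 0.05, and circles the global mean scale. Black diamonds are spread from hsa-miR-370 to hsa-miR-369-5p, and the circles lie to the right of the diamonds for most assays, farthest for hsa-miR-409-3p at 5.15.

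On the normalized values, lower values were found along the whole row, and over the panel 190 of 231 assays were lower. On the global mean scale 19 of the 31 cluster assays were lower and 12 higher, beside 165 and 105 of 270 assays. The called assays came from hairpins at its start (miR-380, miR-323), its middle (miR-543, miR-376a, miR-381, miR-487b, miR-539, miR-544) and its end (miR-541, miR-409, miR-369). Assays that were not called lay between them, among them mmu-miR-300, whose hairpin is next to that of miR-381. That assay read 24.8, 24.5 and 24.1 cycles in C57BL/6J and 26.2, 23.8 and 23.9 cycles in BTBR. BTBR replicate 1 was later than every control and the other BTBR mice earlier, and the change was -2.08 (SE 0.67, adjusted p = 0.0553) on the normalized values and -0.54 (SE 0.65) on the global mean scale.

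The size and sign of the difference went with the level of the assay. Taking cut points of 20 and 25 cycles, chosen after the values were seen, 11 of 12 cluster assays with a mean raw threshold under 20 cycles were lower in BTBR on the global mean scale, with a median of -0.90. Between 20 and 25 cycles 8 of 12 were lower, with a median of -0.42. At 25 cycles or later 7 of 7 were higher, with a median of 1.18. The other assays of the panel had medians of -0.66, -0.31 and 0.07 in these ranges, with 55 of 68, 56 of 99 and 35 of 72 lower. Across assays, which share mice and runs and are not independent, level and change correlated with r = 0.555 (rho 0.534) over 31 cluster assays and r = 0.299 (rho 0.288) over 239 others. The part of assay level in the strain differences was not tested.

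**Figure D3:**
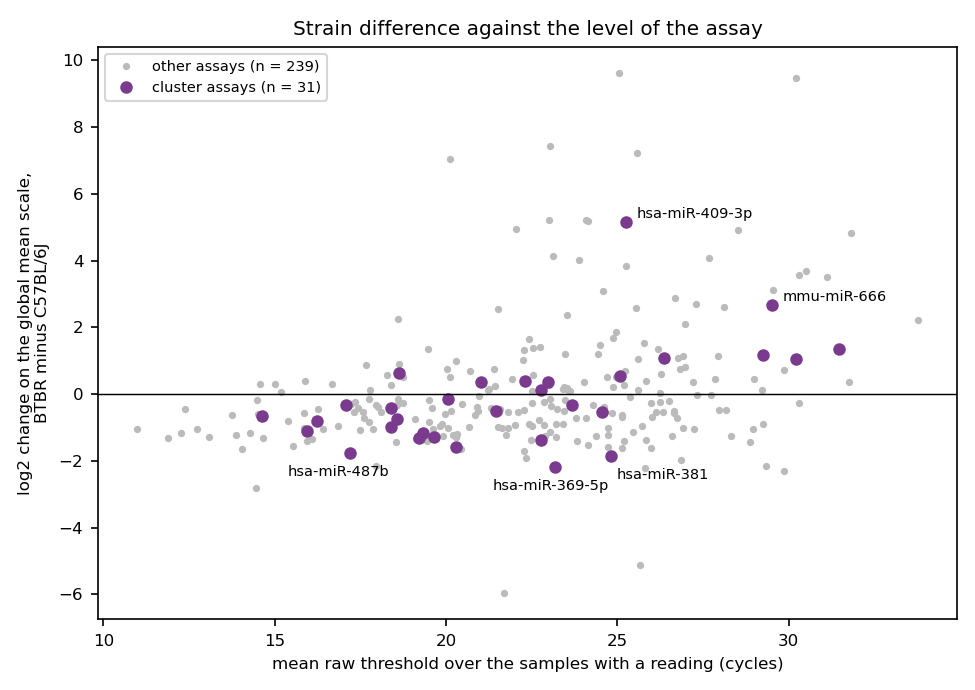
Strain difference on the global mean scale (y axis, log2 units) against the mean raw threshold (x axis, PCR cycles) for 31 cluster assays (purple) and 239 other assays (grey). Cluster assays under 20 cycles lie mostly below 0, and all 7 at 25 cycles or later lie above 0.

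The cluster was also described by pool, taken here as the letter A or B at the end of the assay's identifier. On the global mean scale the 22 cluster assays of pool A had a median of -0.79, beside -0.50 for all 169 assays of that pool. The 9 of pool B had a median of 0.12, beside -0.28 for 101 assays. On the normalized values the direction was the same in both pools, with medians of -1.25 in pool A (19 of 20 lower) and -0.99 in pool B (6 of 7 lower). Over all assays these medians were -1.03 in pool A (125 of 156 lower) and -1.19 in pool B (65 of 75 lower). Of the 12 called assays 11 were among the 20 tested in pool A and 1, mmu-miR-541, among the 7 in pool B. Calls over all assays were not counted by pool, so this split has no panel share beside it. Centring each pool on its own mean left the cluster median at -0.39. The part of the pool was not tested.

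Several miRNAs of the cluster were measured by more than 1 assay, and the assays of a miRNA did not always differ between strains in the same direction. For miR-381, hsa-miR-381 was read in all mice and later in BTBR, while rno-miR-381 was undetermined in C57BL/6J and read in every BTBR mouse 5 or more cycles earlier than hsa-miR-381. For miR-487b, hsa-miR-487b was lower in BTBR, while mmu-miR-487b was read in BTBR only, within 1 cycle of hsa-miR-487b in the same mice. For miR-543, hsa-miR-543 was lower in BTBR and mmu-miR-543 read 25.8, 25.9 and 24.9 cycles in C57BL/6J and 24.3, 24.0 and 25.5 cycles in BTBR, with overlap. The change of mmu-miR-543 was -0.99 (SE 0.42, adjusted p = 0.109) on the normalized values and 0.53 (SE 0.41) on the global mean scale, and rno-miR-543 was read in no mouse. For miR-381 and miR-487b the assays thus differed in which strain read as higher. For miR-543 both assays were lower in BTBR on the normalized values and differed in sign on the global mean scale.

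For miR-409 the 3p arm had an assay in each pool. RNO-MIR-409-3P read 18.9, 18.3 and 18.0 cycles in C57BL/6J and 18.6, 17.8 and 18.8 cycles in BTBR. These values overlapped, and the change was -0.81 (SE 0.42, adjusted p = 0.172) on the normalized values and -0.41 (SE 0.30) on the global mean scale. The assay hsa-miR-409-3p read 31.0, 27.2 and 25.8 cycles in C57BL/6J and 21.7, 19.96 and 25.8 cycles in BTBR. BTBR replicates 1 and 2 were far earlier than the controls, and replicate 3 was level with the earliest control. The change of hsa-miR-409-3p was 5.15 (SE 1.73, adjusted p = 0.149) on the global mean scale, and 6.68 (SE 1.45, adjusted p = 0.0393) without BTBR replicate 3. On the normalized values it was 2.42 (SE 1.72, adjusted p = 0.306), with C57BL/6J replicate 1 missing.

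Other duplicates differed by whether they were read at all. The assays mmu-miR-370, mmu-miR-758, mmu-miR-494 and rno-miR-409-5p were read in no mouse, while hsa-miR-370, hsa-miR-758 and hsa-miR-409-5p were read in all 6. The assay hsa-miR-758, named for a miRNA known to act on the cholesterol transporter Abca1, read 27.7, 27.2 and 26.4 cycles in C57BL/6J and 25.9, 25.6 and 25.5 cycles in BTBR, earlier in every BTBR mouse. Its change was 1.07 (SE 0.36, adjusted p = 0.149) on the global mean scale and -0.78 (SE 0.61) on the normalized values. For the 5p arm of miR-376a, hsa-miR-376a# was read in all mice and mmu-miR-376a# in C57BL/6J replicate 1 and BTBR replicates 2 and 3. On this panel 1 assay of a miRNA could thus be undetermined in mice where its other assay was read.

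**Figure D4:**
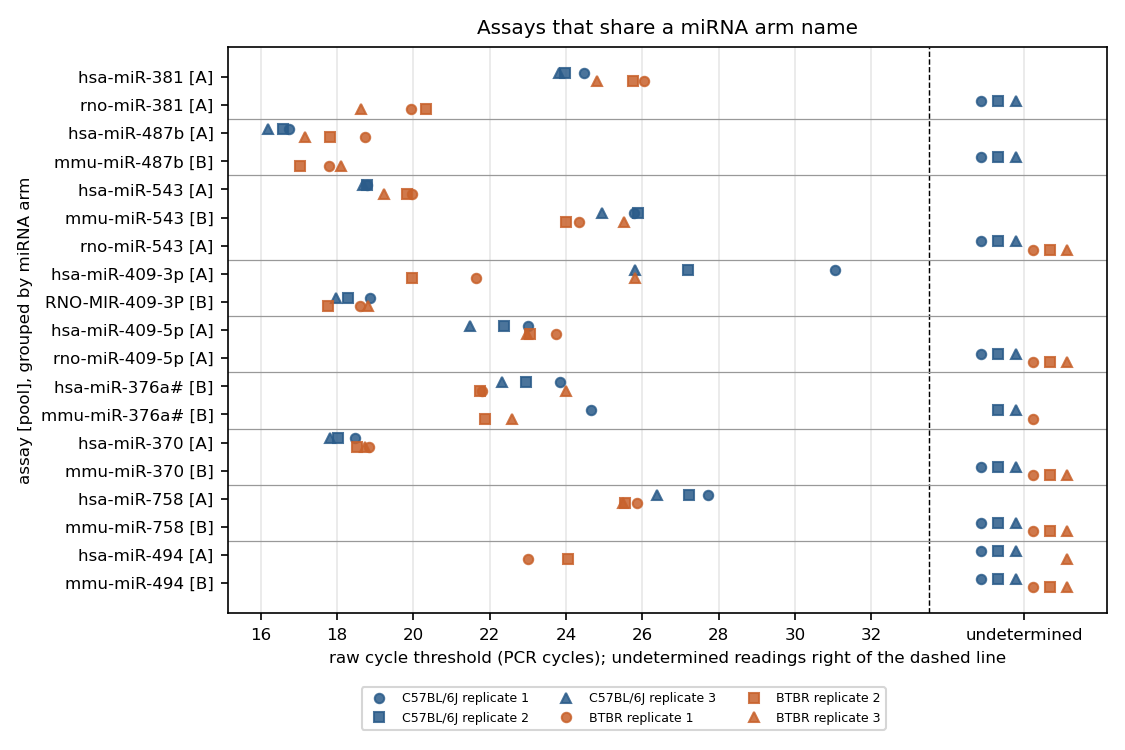
Raw threshold cycle (x axis, PCR cycles) in each mouse for assays that share the name of a miRNA arm, grouped by horizontal lines; marks right of the dashed line are undetermined readings. For miR-381 and miR-487b one assay has readings in all 6 mice and the other in the 3 BTBR mice only.

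Both arms of a hairpin are cut from the same precursor. The overall scale of a sample cancels in the difference between arms where both assays are in 1 pool. Where the assays are in different pools, the difference depends on how each pool is centred. Among the pairs tested, only hsa-miR-409-5p and hsa-miR-409-3p were in the same pool. The difference could be tested for 5 pairs of assays from the cluster, and 0 passed, beside 0.0% of 38 pairs on the panel (limma, adjusted p under 0.05 over 38 pairs). At an unadjusted p under 0.05, 2 of the 5 were called, beside 23.7% of the 38. Values are given as the level of one arm minus that of the other in log2 units, each arm centred on its pool.

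The largest difference was that of hsa-miR-409-5p minus hsa-miR-409-3p. It was 8.06, 4.81 and 4.33 in C57BL/6J and -2.08, -3.11 and 2.82 in BTBR, with no overlap. The change was -6.52 (SE 1.73, adjusted p = 0.128). Measured against RNO-MIR-409-3P, the same 5p arm gave -6.52, -6.47 and -5.92 in C57BL/6J and -7.81, -7.64 and -7.03 in BTBR. The groups did not overlap and the change was much smaller, -1.19 (SE 0.50, adjusted p = 0.194). The size of the arm difference of miR-409 thus depended on the 3p assay.

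For hsa-miR-411 minus hsa-miR-411# the values were 13.2, 11.8 and 12.5 in C57BL/6J and 9.52, 9.99 and 11.7 in BTBR. BTBR replicate 3 was nearly level with the second control, the groups did not overlap, and the change was -2.09 (SE 0.75, adjusted p = 0.172). For mmu-miR-376a minus hsa-miR-376a# the values were 2.29, 1.30 and 1.47 against -0.93, 0.0051 and 1.46. The groups overlapped through BTBR replicate 3, and the change was -1.51 (SE 0.73, adjusted p = 0.236). For mmu-miR-376b minus mmu-miR-376b# the change was 0.32 (SE 0.68, adjusted p = 0.834). Without BTBR replicate 3, 3 of the 5 pairs passed, beside 28.1% of the 32 pairs testable on the panel. They were miR-409 with hsa-miR-409-3p at -8.32 (adjusted p = 0.000145), miR-411 at -2.75 (adjusted p = 0.0107) and miR-376a at -2.15 (adjusted p = 0.0390). That mouse was singled out because it stood apart from its group. Leaving out any other single mouse gave 0 passing pairs.

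**Figure D5:**
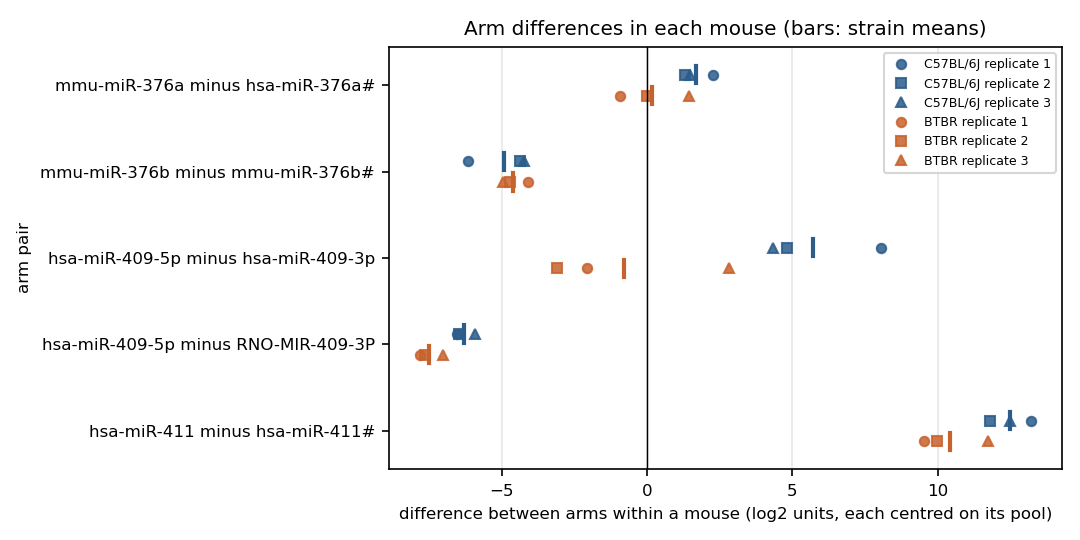
Level of one arm minus the level of the other (x axis, log2 units, each arm centred on its pool) in each mouse for the 5 testable arm pairs; blue marks are C57BL/6J, orange marks BTBR, and short bars the strain means. For hsa-miR-409-5p minus hsa-miR-409-3p the controls lie from 4.33 to 8.06 and the BTBR mice from -3.11 to 2.82.

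The neighbouring miRNAs of the same imprinted domain, in the Meg3 introns and antisense to Rtl1, were taken as a list of 12 names with 26 assays. On the normalized values 3 of the 12 testable assays were lower (mmu-miR-770-5p at -3.31, mmu-miR-770-3p at -2.89 and mmu-miR-434-5p at -2.47), 0 were higher, and the median was -0.79. On the global mean scale 0 of 15 passed and the median was 0.58, opposite in sign to that of the miR-379 to miR-410 cluster. Single assays of this list ran from -1.65 (mmu-miR-434-3p) to 3.1 (mmu-miR-337) on that scale. The list and the cluster were not matched for assay level, and their difference in sign was not tested. The assay mmu-miR-434-5p read 19.9, 19.8 and 19.8 cycles in C57BL/6J and 21.1, 21.1 and 20.9 cycles in BTBR, with no overlap. The assay hsa-miR-127, of the miRNA that acts on Rtl1 from its antisense strand, read 20.7, 20.3 and 20.04 cycles against 17.6, 17.9 and 20.4 cycles. BTBR replicates 1 and 2 were earlier than all controls there and replicate 3 was within their range.

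Because whole cortex was measured, fewer cells of a type and less RNA per cell cannot be told apart. Marker lists of cell types were summed as levels relative to each mouse's panel mean. The 5 neuronal assays (miR-124, miR-9 and miR-128) summed to 730 to 890 in C57BL/6J and 435 to 536 in BTBR, with the 3 assays read in all mice not called on either scale. Of these, mmu-miR-124a read 31.4, 24.8 and 24.4 cycles in C57BL/6J and 20.8, 19.8 and 23.3 cycles in BTBR, earlier in every BTBR mouse. Within the neuronal list, hsa-miR-9 was read in BTBR replicates 1 and 2 only, at 16.8 and 13.9 cycles. The assay hsa-miR-124# was read in C57BL/6J only, at 22.7, 21.7 and 13.7 cycles. The neuronal sums thus include assays read in 1 strain only. Among those read in all mice, hsa-miR-128a read 13.9, 14.0 and 13.8 cycles in C57BL/6J and 14.7, 14.9 and 14.5 cycles in BTBR. Its change on the global mean scale was -1.18. For hsa-miR-9# the thresholds were 13.8, 13.5 and 13.7 against 14.1, 13.8 and 13.7 cycles, with a change of -0.62 on that scale. The 12 choroid plexus and ependyma assays (miR-200 family, miR-34b) summed to 0.0346 to 0.607 against 21.6 to 329, with 4 of the 12 read in no mouse and 5 in BTBR mice only. The 1 assay of this list read in all mice, hsa-miR-200c, did not pass on either scale. The 3 red blood cell assays summed to 1.38 to 2.87 against 31.4 to 127, with miR-486 read in BTBR only, miR-144 in no mouse, and mmu-miR-451, read in all mice, not called on either scale. The 4 assays listed for astrocytes (miR-143, miR-31) summed to 0.401 to 0.482 against 0.724 to 1377, the highest of these resting on 1 reading of mmu-miR-31. One assay for miR-143 was read in BTBR only, at 21.7, 20.8 and 23.7 cycles, and also enters these sums. Another assay for miR-143 read 25.8, 25.3 and 24.9 cycles in C57BL/6J and 25.8, 25.8 and 27.35 cycles in BTBR. Its change on the global mean scale was -1.38. In the same list mmu-miR-31# was called lower in BTBR on the normalized values (-1.18, adjusted p = 0.0301), and the median of the 2 assays tested on the global mean scale was -0.65. The oligodendrocyte (6 assays), microglial and myeloid (5), endothelial (2) and muscle (6) lists had summed levels that overlapped between strains. On the normalized values 1 assay was called lower in the oligodendrocyte list (hsa-miR-338-3p, -3.08, adjusted p = 0.0336) and 1 in the muscle list (hsa-miR-1, -2.50, adjusted p = 0.0465). The part of these lists in the cluster's values was not tested.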

How the data were processed

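RNA from whole prefrontal cortex was column purified, and 100 ng per mouse was reverse transcribed, pre-amplified and run on the OpenArray panel, per the labels' protocols. The deposited raw table holds cycle thresholds of 750 miRNA assays and 96 control lines. The authors' normalized table holds quantile-normalized thresholds of 306 assays, 35 of them from the cluster, per the file headers. Its values under 40 were rebuilt from the raw table to within 3.33e-09 cycles. For this, raw values under 10 were set to 40, assays read in at least 3 samples were kept (340), and 40 took part in the ranking. Some late readings stand at 40 in the normalized table, whose latest other value is 29.19 cycles. Cells at 40 were not compared, and the step from 340 to 306 assays was not rebuilt. The authors' deposited table gives a fold (ratio of BTBR to C57BL/6J), the difference of mean thresholds (a log2 ratio with its sign turned), a test score, a p-value and an adjusted p-value, with 40 kept as a value. Its test is not named in the sources used here.

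Normalized thresholds were multiplied by -1 to give log2 levels, with 40 as missing. The global mean scale used raw thresholds from 10 to under 40. Assays with at least 2 values in each strain were fitted over the whole panel in R 4.3.3 by limma 3.58.1 (lmFit, eBayes) on strain alone, and p was adjusted by Benjamini-Hochberg (threshold 0.05). The fit was tested on simulated data. Cycle thresholds have no counting depth, and each strain has 3 mice with 1 reaction per assay. Same-numbered mice were not treated as pairs: their deviations on the normalized values correlated at 0.083, 0.42 and -0.0013. Members, marker lists and tests were chosen with earlier results of these data known. All members could be named. Full values were given for assays past the threshold on either scale, the 4 with the smallest p where fewer than 4 passed, and assays read in 1 strain only. Values of duplicate assays and arm pairs were given in part, and those of the miR-485 arms were left out.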

Additional observations from a re-analysis of the deposited data

How the results depend on the processing

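On the authors' normalized values the 12 lower cluster calls became 0 after centring on sample medians, 0 with quantiles of detected cells only and 7 with the replicate number as a block (48 of 231 over the panel), and ranged from 0 to 13 when single mice were left out. They were 11 of 35 with 40 kept as a value (70 of 306 over the panel) and 11 of 28 with late readings kept (82 of 253). Among assays read in all 6 samples they were 13 of 25 (81 of 189 over the panel). The 0 higher calls became 4 with 40 kept as a value (26 of 306 over the panel) and ranged from 0 to 1 when single mice were left out. On the global mean scale, leaving out single mice gave 0 to 9 lower and 0 to 2 higher cluster calls. The other settings there (centring by pool, median, U6 or none, late readings as missing, the replicate block) gave 0 in both directions. Arm pair calls ranged from 0 to 3 without single mice and were 0 otherwise, the replicate block included. The replicate numbers do not pair the mice by the check used. The change of hsa-miR-539 was 0.11 after centring on sample medians, and the cause was not tested. Cluster assays read per sample differed by 8.33 under 28 cycles and by 7.33 with any number under 40. Over the panel these differences were 76.7 and 72.3. Precision is limited by 3 mice per strain and 1 reading per assay, late thresholds are the least precise, and 16 of 65 assays gave no reading.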
